A study of Mus musculus with 6 samples.

Results

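The NRF2, glutathione and antioxidant genes are a set of 49 human genes fixed by name and matched to the gene names of the deposited count table, which lists 58735 genes. All 49 names were found once each, and 44 of these genes had enough counts to be tested among 17142 tested genes. RNA-Seq was done on 22Rv1 cells, a human prostate cancer line, in 2 groups of 3 libraries. Parental cells received vehicle, and the resistant subline 22Rv1 BL-B01D1_R was derived from them by exposure to rising concentrations of BL-B01D1. The methods of the study do not state whether the resistant cells were in BL-B01D1 when RNA was extracted. BL-B01D1 is a bispecific antibody-drug conjugate that binds EGFR and HER3 and carries Ed-04, a camptothecin-type topoisomerase I inhibitor. The resistant subline is a single line from a single selection, and nothing in the labels places the libraries of a group in separate selections, so p-values here measure only the spread between libraries. The labels give mouse as the organism, but the cell line, the gene identifiers and the hg38 mapping belong to human cells, and the genes were treated as human.

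NRF2, encoded by NFE2L2, is a transcription factor that KEAP1 holds in the cytoplasm and sends for degradation. When oxidants or electrophiles modify KEAP1, NRF2 accumulates, pairs with a small MAF protein such as MAFG and binds antioxidant response elements, where it competes with the repressor BACH1. Its classic targets make glutathione, reduce peroxides and quinones, conjugate electrophiles, supply NADPH and store or degrade heme iron.

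Counts on genes per library ranged from 13821639 to 17251491, and 3 counts corresponded to 0.174 to 0.216 CPM (counts scaled to equal library size by TMM). All 9 luminal prostate markers examined were expressed. Their levels were not all steady, with log2 fold changes in resistant cells from −0.48 for HOXB13 to 0.91 for KLK3. Of 15 basal, neuroendocrine, stromal and blood markers, 11 had at most 5 counts in every library. The exceptions were SYP, CHGA, COL1A1 and DCN. Of the neuroendocrine markers among them, CHGA fell from 39.4 to 8.18 CPM, whereas SYP was at 103 and 106 CPM (FDR 0.531). Mitochondrial transcripts took 4.19% to 4.21% of counts in parental libraries and 5.10% to 5.35% in resistant libraries, and the part of this difference in the values below was not tested. Replicate libraries differed by more than sampling noise, so all 6 were kept as separate samples. In a bulk sample, fewer cells expressing a gene cannot be told apart from less RNA per cell.

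In the resistant subline, 15 of the 44 tested members rose and 8 fell at an FDR of less than 0.05 in edgeR's quasi-likelihood test, with adjustment over all 17142 genes. Across all tested genes, 17.1% rose and 18.4% fell by the same rule. The fold changes of members were estimated more precisely than those of most genes, with a median SE of 0.049 against 0.088 on the log2 scale. Among the 36 members with at least 10 CPM on average, 14 rose (38.9%) and 5 fell (13.9%), against 21% and 22.6% of the 10416 tested genes at that level. The fold changes themselves were small. The median log2 fold change was 0.032 over the tested members and 0.0038 over all tested genes. Only NQO1 also passed the study's threshold of an absolute log2 fold change greater than 1, which 2.53% of all tested genes passed upward and 2.84% downward. Of the other 43 tested members, 41 had a 95% interval that lay entirely between −1 and 1 on the log2 scale, and the exceptions were GSTM3 and GPX3. The lowest resistant library exceeded the highest parental one for 18 members, and the reverse held for 10, compared with 22.1% and 22.8% of all tested genes.

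**Figure D1:**
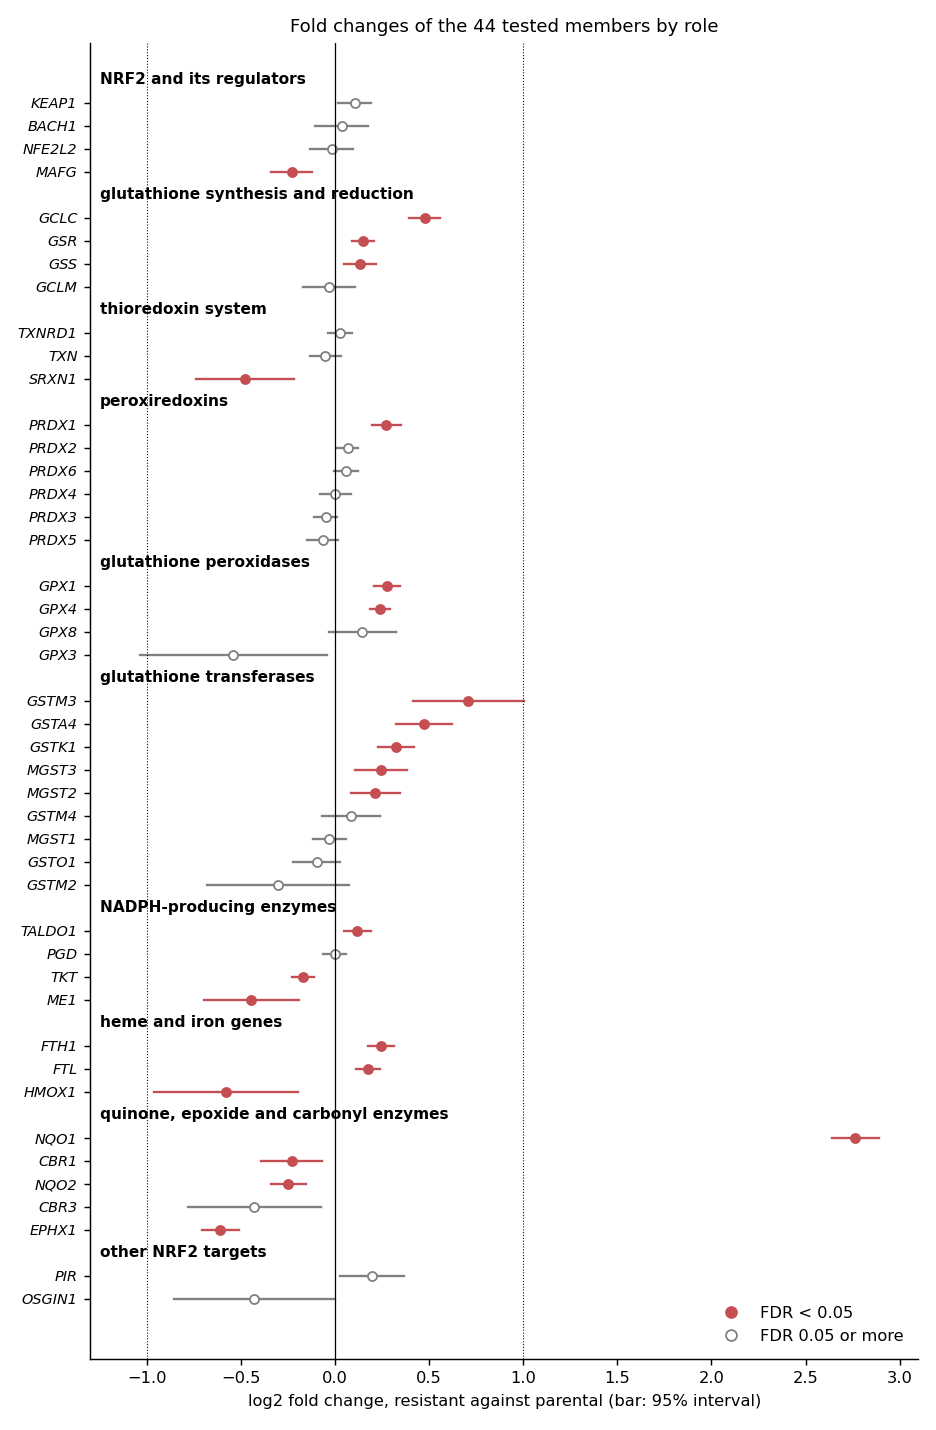
Log2 fold change of each of the 44 tested members in resistant against parental cells (points), with 95% intervals (bars), grouped by role; filled red points passed an FDR of 0.05 and dotted lines mark −1 and 1. NQO1, at 2.76, stands apart, whereas every other member lies between −0.61 and 0.71.

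Of NFE2L2 and its direct regulators, 1 of 4 passed the test, against 35.5% of all tested genes in either direction. NFE2L2 was at 53.7, 48.3 and 50.1 CPM in the parental libraries and at 48.1, 50.3 and 51.8 CPM in the resistant libraries. The groups overlapped, and the log2 fold change was −0.018 with a 95% interval of −0.134 to 0.099 (FDR 0.849). KEAP1, the adaptor that targets NRF2 for ubiquitination, had 101, 90.5 and 94.5 CPM in parental cells and 102, 101 and 105 CPM in resistant cells. Its resistant libraries lay just above the parental ones, but the log2 fold change of 0.10 (SE 0.043) did not pass the test (FDR 0.0567). It did pass when parental library 1 was left out (0.15, FDR 0.00842), with upper-quartile scaling (FDR 0.0471) and with a filter of at least 10 counts in every library (FDR 0.0449). BACH1 was at 31.0, 32.7 and 31.0 CPM in parental cells and at 30.3, 34.0 and 32.8 CPM in resistant cells. These groups overlapped, with a log2 fold change of 0.036 and an interval of −0.104 to 0.176 (FDR 0.738).

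MAFG, the small MAF partner, was the only one of these 4 genes that passed the test. It had 70.9, 63.3 and 69.2 CPM in parental cells and 61.4, 56.8 and 55.2 CPM in resistant cells, without overlap. Its log2 fold change was −0.23 (SE 0.054, FDR 7.39e-04). SIRT7, which overlaps MAFG on the same strand, rose by a log2 value of 0.27 (FDR 0.00231). AGPS overlaps NFE2L2 on the opposite strand, with a log2 fold change of −0.14 (FDR 0.0745). Whether counting used strand is not given in the sources used here, so reads from such pairs may not be fully separated.

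NQO1 rose most of all members. NQO1 (ENSG00000181019; reverse strand of chromosome 16 of hg38, 69706996 to 69726951) encodes a quinone reductase and is among the most widely used readouts of NRF2 activity. Its counts were 253, 239 and 199 in parental cells and 1633, 1402 and 1625 in resistant cells. After scaling, this was 14.7, 14.2 and 14.3 CPM in parental cells against 98.5, 95.3 and 100.1 CPM in resistant cells. The groups were far apart relative to a spread of 0.23 and 2.46 CPM (SD, n = 3 each). The fold change was 6.79, with a log2 value of 2.76 (SE 0.061) and an FDR of 5.71e-33, and ranked 44 among all tested genes counted from the largest increase.

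**Figure D2:**
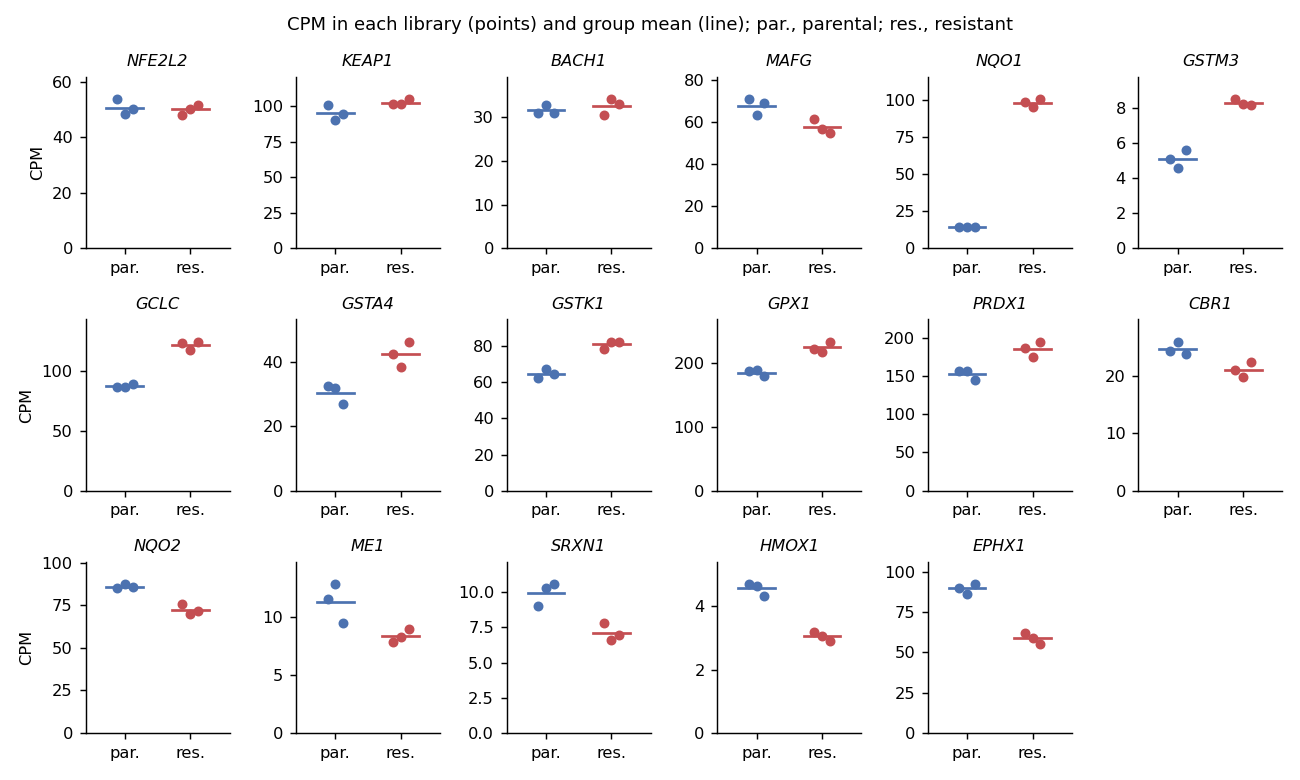
CPM of the regulator genes and of the members with the highest and the lowest log2 fold changes among those at an FDR of less than 0.05, 17 genes in all, with each library as a point and the group mean as a line. NQO1 has by far the largest step, the groups of NFE2L2 and BACH1 overlap, and the other 14 genes separate by smaller amounts.

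Of the other 4 tested enzymes of quinones, epoxides and carbonyls, 3 fell and 0 rose in edgeR's test. Across all tested genes, 18.4% fell and 17.1% rose. EPHX1 (ENSG00000143819; forward strand of chromosome 1, 225810092 to 225845563), the microsomal epoxide hydrolase, fell from 90.1, 86.3 and 92.4 CPM to 61.9, 58.7 and 55.5 CPM. The groups were well separated, and its log2 fold change of −0.61 (SE 0.049, FDR 1.38e-13) was the lowest of all members. NQO2, the paralog of NQO1 that uses dihydronicotinamide riboside rather than NADPH, fell from 84.9, 87.5 and 85.4 CPM to 75.7, 69.9 and 71.4 CPM. This smaller decrease also left no overlap, with a log2 fold change of −0.25 (SE 0.046, FDR 2.99e-05). CBR1, a carbonyl reductase, had 24.2, 25.9 and 23.8 CPM in parental cells and 21.0, 19.7 and 22.4 CPM in resistant cells. The groups lay side by side, and its log2 fold change of −0.23 (FDR 0.0212) lost significance with DESeq2 (FDR 0.0705) and without parental library 2, resistant library 1 or resistant library 2 (FDR 0.102, 0.060 and 0.115). CBR3, its neighbor on chromosome 21, had a log2 fold change of −0.43 that did not pass the test (FDR 0.0522) except with library size alone (FDR 0.0431). The antisense gene CBR3-AS1, counted at 84.7% of the reads of CBR3, rose by a log2 value of 0.63 (FDR 0.0181). TMEM63A, on the strand opposite to EPHX1, rose by 0.23 (FDR 0.0268).

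Within a library, the ratio of NQO1 to NQO2 counts does not depend on library scaling. It was 0.173, 0.163 and 0.168 in parental cells and 1.301, 1.36 and 1.40 in resistant cells. The groups did not overlap, with a log2 difference of 3.01 (exact permutation test, two-sided, p = 0.1, adjusted p = 0.133 over 4 ratios). With 3 libraries per group, 0.1 is the smallest p that this test can give. The 4 ratios were chosen after the values were seen, so their p-values add nothing to the separation. The listed lengths are 3254 bases for NQO1 and 11558 for NQO2, so a count ratio of 1 does not mean equal levels. NQO2 itself went from 7.43 to 6.26 FPKM. Per length, in FPKM, NQO1 moved from a level near that of CBR3, 4.43 against 4.36, to 30.1, above EPHX1 at 23.4.

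Within 1 Mb of the start of NQO1 on chromosome 16, 32 other genes were tested, with a median log2 fold change of 0.0098. Of these, 6 rose and 4 fell at an FDR of less than 0.05. The nearest neighbors, NOB1 and WWP2, had log2 fold changes of 0.075 (FDR 0.323) and 0.044 (FDR 0.535). Both genes past a log2 fold change of 1 were weakly expressed, at no more than 1.40 CPM in either group. They were AC009032.1 and the ferritin pseudogene FTLP14, at 1.06 (FDR 0.0339) and 2.03 (FDR 1.96e-04).

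**Figure D3:**
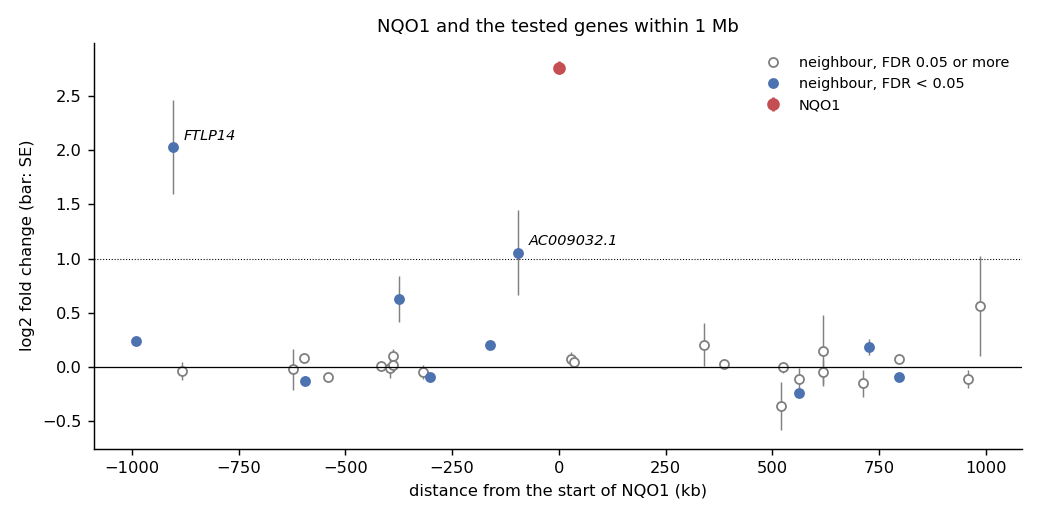
Log2 fold change (bars, SE) of NQO1 and of the 32 tested genes whose start lies within 1 Mb, against distance from the start of NQO1 in kb. NQO1 stands at 2.76, and of the neighbors only FTLP14 and AC009032.1, both weakly expressed, lie above 1.

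Among genes of glutathione synthesis and reduction, 3 of 4 rose, against 17.1% of all tested genes. With so few genes, the difference between these shares was not tested. GCLC (chromosome 6, 53497341 to 53616970) encodes the catalytic subunit of glutamate-cysteine ligase, the rate-limiting enzyme of glutathione synthesis. It rose from 87.1, 87.0 and 89.5 CPM to 124, 118 and 125 CPM. The groups did not overlap, and the log2 fold change was 0.48 (SE 0.041, FDR 7.49e-13). GCLM, the modifier subunit of the same enzyme, had 32.6, 30.5 and 31.3 CPM in parental cells and 31.3, 31.1 and 30.1 CPM in resistant cells. These groups overlapped, with a log2 fold change of −0.030 and an interval of −0.169 to 0.109 (FDR 0.781). GSR, which reduces oxidized glutathione, rose by 0.15 (SE 0.028, FDR 3.63e-05) from a higher level, 370 ± 10.4 to 411 ± 4.52 CPM (SD, n = 3 each). GSS, which adds glycine in the last step of synthesis, rose by 0.14 (SE 0.042, FDR 0.0103). The call of GSS was lost without parental library 2 (0.092, FDR 0.131) or resistant library 3 (0.11, FDR 0.0717).

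The ratio of GCLC to GCLM counts was 2.67, 2.85 and 2.86 in parental libraries and 3.96, 3.79 and 4.15 in resistant libraries. Every resistant ratio exceeded every parental ratio, by a mean log2 difference of 0.50 (exact permutation test, two-sided, p = 0.1, adjusted p = 0.133 over the 4 ratios). This p is the smallest that the test can give, and the ratio was chosen after the values were seen.

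**Figure D4:**
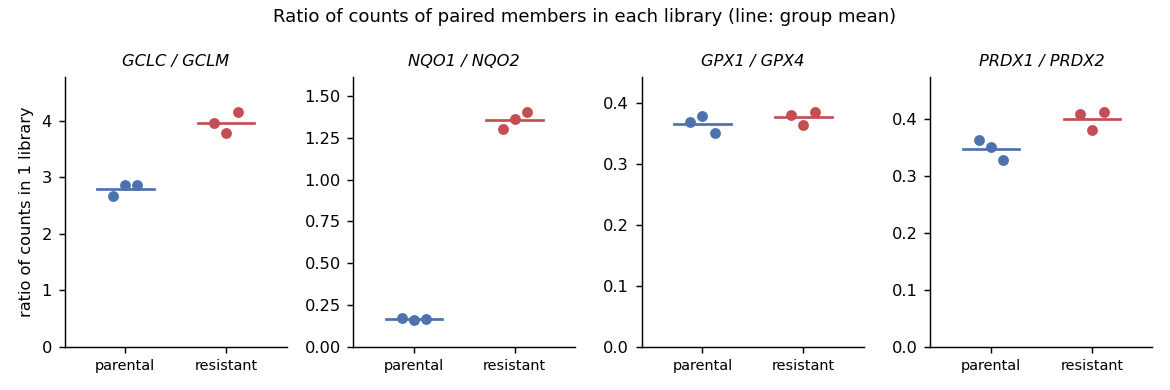
Ratio of the counts of paired members in each library (points) with the group mean (line), with axes starting at 0. The ratios GCLC/GCLM, NQO1/NQO2 and PRDX1/PRDX2 separate the groups, whereas GPX1/GPX4 overlaps.

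In the thioredoxin system, 1 of 3 genes passed the test, against 35.5% of all tested genes in either direction. TXN, the thiol reductant that recycles peroxiredoxins, had a log2 fold change of −0.051 (interval −0.134 to 0.032, FDR 0.363). TXNRD1, the selenoprotein that reduces thioredoxin, had a log2 fold change of 0.029 (interval −0.034 to 0.091, FDR 0.523), and RPL18AP3, a pseudogene that overlaps it on the same strand, rose by 0.20 (FDR 1.25e-04). SRXN1, sulfiredoxin, which repairs overoxidized peroxiredoxins and is a strongly NRF2-dependent gene in many cells, fell. It had 8.99, 10.3 and 10.6 CPM in parental cells and 7.78, 6.59 and 6.96 CPM in resistant cells. The groups did not overlap, and the log2 fold change was −0.48 (SE 0.129, FDR 0.00296).

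Of the 6 peroxiredoxins, PRDX1 alone passed the test, whereas 35.5% of all tested genes passed in either direction. PRDX1, a cytosolic peroxidase, rose from 157, 157 and 145 CPM to 186, 175 and 195 CPM. The groups were separate, with a log2 fold change of 0.27 (SE 0.038, FDR 1.81e-07). PRDX2, the other major cytosolic form, had a log2 fold change of 0.067 (SE 0.027) that did not pass (FDR 0.0531). PRDX2 did pass with limma-voom (FDR 0.0335), upper-quartile scaling (FDR 0.0433), a filter of at least 10 counts (FDR 0.0411) and without resistant library 1 (FDR 0.0475). HOOK2, which overlaps PRDX2 on the same strand, had a log2 fold change of −0.22 (FDR 0.00227). The ratio of PRDX1 to PRDX2 counts was 0.363, 0.351 and 0.328 in parental cells and 0.410, 0.380 and 0.412 in resistant cells, without overlap (exact permutation test, two-sided, p = 0.1, adjusted p = 0.133). The mitochondrial PRDX3, the endoplasmic reticulum form PRDX4, PRDX5 and PRDX6 had log2 fold changes of −0.049, 0.0033, −0.065 and 0.059, with FDR values from 0.159 to 0.962. MMACHC lies on the strand opposite to PRDX1 and had a log2 fold change of −0.11 (FDR 0.170).

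Both abundant glutathione peroxidases rose. GPX1, the cytosolic enzyme for hydrogen peroxide, rose from 188, 189 and 179 CPM to 223, 218 and 234 CPM. The groups did not overlap, and the log2 fold change was 0.28 (SE 0.034, FDR 8.95e-09). The table classes GPX1 as a polymorphic pseudogene, although it encodes a well-known enzyme, and its pseudogene rows held 1.00% of its counts. GPX4, the enzyme that reduces lipid hydroperoxides and restrains ferroptosis, rose from 509, 499 and 511 CPM to 585, 599 and 608 CPM. It was again without overlap, with a log2 fold change of 0.24 (SE 0.026, FDR 6.26e-10). The ratio of GPX1 to GPX4 counts was 0.366 ± 0.014 in parental and 0.376 ± 0.011 in resistant cells (SD, n = 3 each), and these ratios overlapped (exact permutation test, two-sided, p = 0.4). GPX8 (0.15, FDR 0.209) and the secreted GPX3 (−0.54, FDR 0.0842) did not pass. GPX2, the gastrointestinal form, had 7, 11 and 8 counts in parental and 12, 7 and 5 counts in resistant libraries and was not tested.

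Glutathione transferases conjugate glutathione to electrophiles, and 5 of the 9 tested rose while 0 fell at an FDR of less than 0.05 in edgeR's test. Across all tested genes, 17.1% rose and 18.4% fell. Of 10 other genes of glutathione transferase families, outside the members, 5 were tested, and 0 rose and 0 fell. GSTM3, a mu class enzyme, rose from 5.10, 4.59 and 5.62 CPM to 8.51, 8.23 and 8.20 CPM. The groups were separate, with a log2 fold change of 0.71 (SE 0.145, FDR 1.28e-04), the largest after NQO1. GSTA4, which acts on the lipid peroxidation product 4-hydroxynonenal, rose from 32.4, 31.9 and 26.9 CPM to 42.4, 38.3 and 46.3 CPM. Its log2 fold change was 0.47 (SE 0.073, FDR 1.24e-06), again without overlap. GSTK1, the kappa class enzyme of mitochondria and peroxisomes, rose from 62.2, 67.4 and 64.5 CPM to 78.6, 82.3 and 82.4 CPM. These groups did not overlap either, and the log2 fold change was 0.33 (SE 0.048, FDR 5.13e-07).

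The microsomal forms MGST2 and MGST3 rose by 0.21 (FDR 0.00712) and 0.25 (FDR 0.00358) on the log2 scale. MGST2 is overlapped on the opposite strand by MAML3, whose log2 fold change was −0.16 (FDR 0.109). MGST1, GSTO1, GSTM4 and GSTM2 did not pass, with log2 fold changes of −0.030, −0.096, 0.085 and −0.30. GSTM2 and GSTM4 overlap on the same strand and are close in sequence, so the division of reads between them is uncertain. GSTP1, the pi class enzyme that is silenced by promoter methylation in most prostate cancers, had 1 count in each of parental library 3, resistant library 1 and resistant library 3 and 0 elsewhere. GSTM1 had 0 counts in all 6 libraries, which at these depths allows up to 0.174 to 0.216 CPM per library for counting error. Its listed span lies within that of GSTM2 on the same strand, so any reads of GSTM1 may not be separated from those of GSTM2. AKR1B1 and AKR1B10, aldo-keto reductases of chromosome 7, also had 0 counts in every library. AKR1B10 is one of the genes most responsive to NRF2 in other cells, and neither line gave a count for it.

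Of 4 genes grouped here under NADPH supply, 1 rose and 2 fell, against 17.1% and 18.4% of all tested genes. TALDO1 and TKT carry out the nonoxidative steps of the pentose phosphate pathway, which do not themselves produce NADPH. TALDO1 rose by 0.12 (SE 0.035, FDR 0.00636) and lost its call without parental library 2 (0.099, FDR 0.0529). TKT fell by 0.17 on the log2 scale (SE 0.029, FDR 6.10e-06), from 399 ± 9.70 to 354 ± 8.70 CPM (SD, n = 3 each). PGD, 6-phosphogluconate dehydrogenase, had a log2 fold change of −5.1e-04 (interval −0.063 to 0.062, FDR 0.992). ME1, the cytosolic malic enzyme, had 11.5, 12.9 and 9.51 CPM in parental cells and 7.84, 8.29 and 8.94 CPM in resistant cells. The groups lay apart, and the log2 fold change of −0.44 (SE 0.125, FDR 0.00435) lost significance without parental library 2 (−0.34, FDR 0.0566).

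Of the heme and iron genes, both ferritin chains rose and heme oxygenase fell. FTH1, the heavy chain, rose from 166, 165 and 164 CPM to 195, 189 and 204 CPM. FTL, the light chain, rose from 253, 251 and 247 CPM to 282, 273 and 293 CPM. Neither pair of groups overlapped, with log2 fold changes of 0.25 (SE 0.035, FDR 1.93e-07) for FTH1 and 0.18 (SE 0.031, FDR 1.26e-05) for FTL. Ferritin has many processed pseudogenes, and those listed held 1.77% of the counts of FTH1 and 0.522% of those of FTL. HMOX1, the inducible heme oxygenase that BACH1 represses, had 4.70, 4.64 and 4.32 CPM in parental cells and 3.20, 3.06 and 2.90 CPM in resistant cells. The groups did not overlap, and the log2 fold change was −0.58 (SE 0.189, FDR 0.0139). With DESeq2, HMOX1 passed only narrowly (FDR 0.0499).

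The remaining NRF2 targets did not pass the test. OSGIN1, an oxidative stress-induced growth inhibitor, had a log2 fold change of −0.43 (FDR 0.114) and passed only without parental library 3 (−0.59, FDR 0.0350). PIR, pirin, had a log2 fold change of 0.20 (FDR 0.0676) and passed without parental library 1 (FDR 0.0288) or resistant library 1 (FDR 0.0429). BMX, on the strand opposite to PIR and counted at 5.13% of its reads, rose by a log2 value of 3.45 (FDR 2.08e-08). Whether reads of BMX entered the counts of PIR was not tested.

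Compared per length in FPKM, the most abundant members were ferritin and peroxide-reducing enzymes. Ranks and sums in FPKM rest on the listed gene lengths, whose match to the transcripts expressed here was not checked. The order by CPM differs, with TKT (399 CPM) above FTL (250 CPM) in parental cells. FTL was at 285 FPKM in parental and 322 FPKM in resistant cells, GPX4 at 251 and 296 FPKM and PRDX2 at 211 and 221 FPKM. These held the first 3 places in both lines. In each line, 9 members exceeded 100 FPKM. The sum over all members was 2155 ± 0.40 FPKM in parental and 2338 ± 45.5 FPKM in resistant cells (SD, n = 3 each), a ratio of 1.085. By role, glutathione peroxidases had the largest ratio of summed FPKM, 1.19, followed by quinone, epoxide and carbonyl enzymes at 1.154. That second ratio rests on NQO1, since the same sum without NQO1 went from 57.6 ± 0.73 to 41.5 ± 1.38 FPKM (SD, n = 3 each), a ratio of 0.720, the lowest of the roles. With NQO1 included, the thioredoxin system had the smallest ratio, 0.970.

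**Figure D5:**
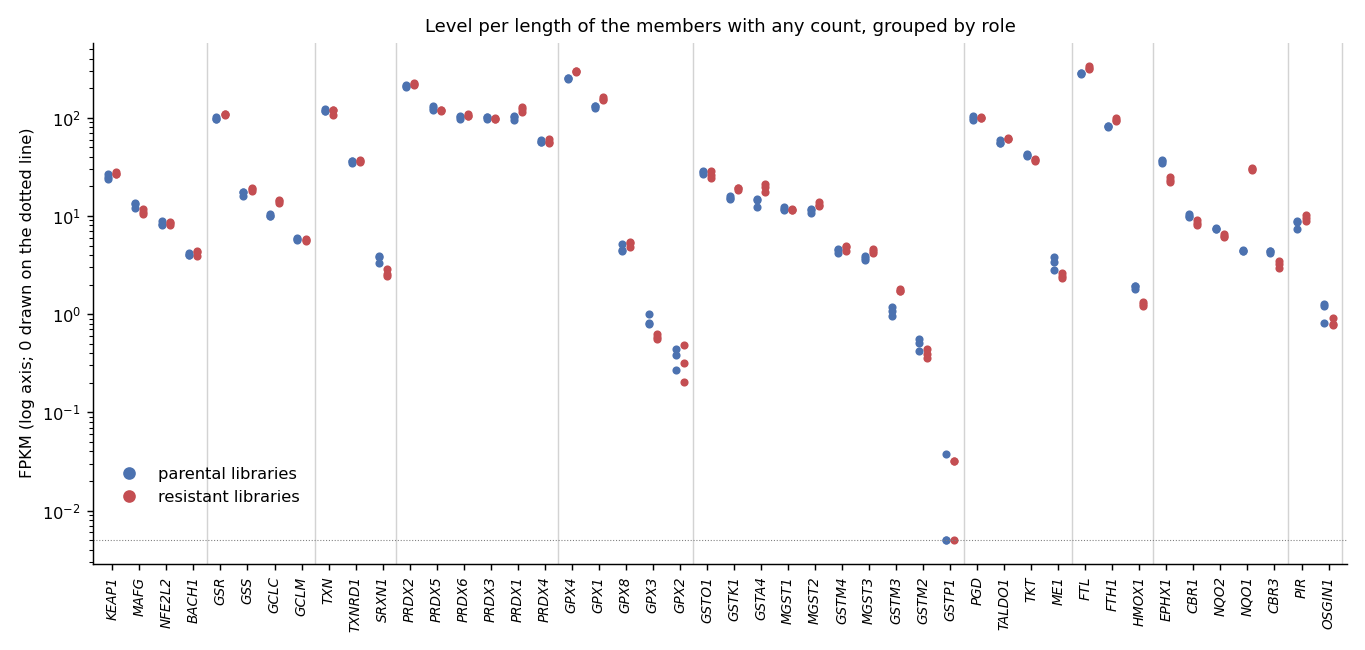
FPKM of the 46 members with any count in each parental (blue) and resistant (red) library, on a log axis and grouped by role from regulators (left) to other NRF2 targets (right), with 0 drawn on the dotted line. Levels span from GSTP1, near 0, to FTL and GPX4, and the libraries of both lines lie close together for nearly all members, whereas NQO1 is clearly split.

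Further genes of the pathway were taken from a list of 85 genes, of which 75 were tested. In resistant cells, 18 rose (24.0%) and 13 fell (17.3%), against 17.1% and 18.4% of all tested genes. The list was made with earlier results of these data known. It holds ABCG2, ABCC1 and ABCC2, which the study reported as raised, so these shares are description only. Their median log2 fold change was 0.018. Beyond the transporters ABCG2, ABCC1 and ABCC2, with log2 fold changes of 6.71, 1.97 and 1.44, the genes past a log2 fold change of 1 were GLRX and AKR1C3. GLRX, a glutaredoxin that removes glutathione from proteins, rose from 9.22, 10.9 and 10.95 CPM to 43.9, 42.6 and 44.9 CPM. The groups were far apart, with a log2 fold change of 2.08 (SE 0.082, FDR 7.39e-24). AKR1C3, a ketosteroid reductase, rose by 1.40 on the log2 scale (SE 0.066, FDR 3.06e-21), whereas its relative AKR1C1 fell by 0.77 (FDR 0.00516). AKR1C genes are close in sequence, so this division of reads is uncertain.

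The genes of cystine import fell. SLC7A11, the antiporter that brings in cystine for glutathione synthesis, had 112, 112 and 108 CPM in parental cells and 62.3, 56.9 and 61.9 CPM in resistant cells. The groups were separate, with a log2 fold change of −0.87 (SE 0.046, FDR 1.49e-19). SLC3A2, the heavy chain it shares with other amino acid transporters, had a log2 fold change of −2.501 (FDR 2.81e-44). A further 13 genes of the same list either sense NRF2, turn it over or are relatives of NFE2L2, BACH1 or MAFG. Of these, 5 fell (38.5%) and 2 rose (15.4%), against 18.4% and 17.1% of all tested genes. Those that fell were CUL3, SYVN1 and the relatives NFE2L3, MAFF and BACH2. BACH2, a relative of BACH1, had the lowest log2 fold change among them, −1.39 (SE 0.296, FDR 2.12e-04), from 2.56 ± 0.24 to 0.976 ± 0.225 CPM (SD, n = 3 each). MAFF, another small MAF gene, fell by 0.65 on the log2 scale (FDR 1.61e-06), and SQSTM1, which competes with NRF2 for KEAP1, rose by 0.15 (FDR 0.00513).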

How the data were processed

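Per the labels and the methods of the study, RNA was extracted with TRIzol, poly(A) mRNA libraries were sequenced on an Illumina NovaSeq, and the authors trimmed reads with fastp, mapped them to hg38 with HISAT2 and counted them with featureCounts. The deposited values are raw counts per gene, with gene length and position beside them. Strand setting and annotation release are not given in the sources used here. Groups came from sample labels (3 parental, 3 resistant). Genes were filtered with filterByExpr, scaled by TMM and tested with edgeR 4.0.16 (quasi-likelihood, Benjamini-Hochberg FDR over all tested genes) in R 4.3.3. SE is the absolute log2 fold change divided by the square root of F. FPKM were computed from CPM and listed length. The procedure was tested on simulated data. Members and lists were chosen with earlier results of these data known. Genes given in full were the regulators and the highest and lowest fold changes among those passing the FDR threshold, and other members are given by role. No sequence is shown, because no human reference was used here.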

Additional observations from a re-analysis of the deposited data

How the results depend on the processing

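Alternatives were DESeq2, limma-voom, other scalings and filters, a test against a minimum fold change (glmTreat), the replicate block and leaving out each library. Of 375 values of single genes over 15 alternatives, 349 kept their direction and side of the threshold, and 21 lost and 3 gained significance in the same direction. The other 2 were of NFE2L2, which passed in no fit and whose log2 fold change turned from −0.018 to 0.027 without parental library 1 (FDR 0.790) and to 0.013 without resistant library 1 (FDR 0.918), within a range of −0.054 to 0.027 when 1 library was left out. With glmTreat, 1 member was higher and 0 lower, and among the other pathway genes 4 were higher and 1 lower, because that test asks for more than any difference. ABCC2 (FDR 0.378) and BACH2 (FDR 0.95), both past an absolute log2 fold change of 1 in the main fit, did not pass glmTreat. Leaving out 1 library gave 13 to 17 members higher and 6 to 9 lower, 1 to 1 higher and 0 to 0 lower past a log2 fold change of 1, 15 to 18 other pathway genes higher and 10 to 13 lower, and a member median of 0.0199 to 0.0418. The log2 fold change of NQO1 stayed between 2.75 and 2.78 in these fits. Over all genes, calls past both thresholds were 434 higher and 487 lower, against 248 and 287 with at least 10 counts in every library and 178 and 144 with glmTreat. Libraries with the same replicate number did not deviate together (correlations from −0.020 to −0.0081), and with the replicate number as a block 15 members were higher and 8 lower, as without the block. Each group holds 3 libraries of 1 line, so differences smaller than their intervals were not detectable. Resistance cannot be told apart from other differences of that subline, or from any BL-B01D1 present when RNA was extracted.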
